A study of Homo sapiens with 6 samples.

Results

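The 10 genes described here are the chemokines CXCL1, CXCL2, CXCL3, CXCL8, CCL2, CCL5, CCL20, CXCL10, CXCL11 and CXCL16, found by symbol among 60606 rows of a gene expression table. All 10 symbols were found, once each. RNA was sequenced from 6 tumors grown from wild-type MDA-MB-231 cells (a human line from breast cancer) under the skin of the left flank of NSG mice (NOD/SCID/IL2Rγ-null), where the cells had been injected with Matrigel. The 3 irradiated tumors received 10 Gy of X-rays once, locally, at a volume of about 800 mm3, and the mice were killed 3 days later. The 3 control tumors were grown in the same way and were not irradiated. NSG mice lack T, B and natural killer cells and still have neutrophils and macrophages, so a tumor sample holds human cancer cells together with mouse stroma and myeloid cells. The comparison asks how irradiation changed the tumors' transcripts, in a study whose title concerns spermidine synthase from cancer cells and muscle fibrosis after radiotherapy.

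Chemokines are small secreted proteins that attract leukocytes through receptors of the G-protein-coupled family. CXCL1, CXCL2, CXCL3 and CXCL8 act on CXCR1 and CXCR2 of neutrophils, CCL2 acts on CCR2 of monocytes, and CCL20 acts on CCR6. These genes are classic targets of NF-kB, the transcription factor that interleukin-1 and tumor necrosis factor switch on, and they are called NF-kB-type here. CXCL10 and CXCL11, ligands of CXCR3 on activated T cells, and CCL5 are induced by interferons and by the interferon regulatory factors and are called interferon-type, although NF-kB also acts on CCL5 and CXCL10. CXCL16, which is made as a membrane protein and acts on CXCR6 after it is shed, answers to both kinds of signal and is given on its own. MDA-MB-231 is known for secreting CXCL8, a chemokine for which the mouse genome has no gene.

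A short NF-kB-like motif lies upstream of genes of both types, and the promoters that hold it are shown here so that the members can be compared. The sequences are the bases just before the RefSeq start of transcription (GRCh38.p14), in the direction of the gene. Capitals mark GGAATTTCC on either strand (GGAAATTCC when read on the other one), the form in which NF-kB binds the CXCL8 promoter, and an interferon-response-like motif, a pair of GAAA with any 2 bases between them, on either strand.
CXCL1 (chr4:73869273-73869392, plus strand): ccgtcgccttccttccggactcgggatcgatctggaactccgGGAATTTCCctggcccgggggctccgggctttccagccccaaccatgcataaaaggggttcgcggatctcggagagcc
CXCL2 (chr4:74099196-74099315, minus strand): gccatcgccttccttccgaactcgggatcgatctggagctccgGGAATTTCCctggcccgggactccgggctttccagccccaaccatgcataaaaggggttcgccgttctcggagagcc
CXCL3 (chr4:74038690-74038809, minus strand): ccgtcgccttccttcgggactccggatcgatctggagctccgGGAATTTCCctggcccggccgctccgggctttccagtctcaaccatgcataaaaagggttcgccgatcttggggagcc
CXCL8 (chr4:73740449-73740568, plus strand): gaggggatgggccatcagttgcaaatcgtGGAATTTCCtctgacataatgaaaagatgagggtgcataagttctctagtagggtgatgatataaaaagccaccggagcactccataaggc
CXCL11 (chr4:76036071-76036190, minus strand): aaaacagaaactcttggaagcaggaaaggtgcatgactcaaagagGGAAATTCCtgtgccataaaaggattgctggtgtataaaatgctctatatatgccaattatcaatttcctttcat
CXCL10 (chr4:76023498-76023747, minus strand): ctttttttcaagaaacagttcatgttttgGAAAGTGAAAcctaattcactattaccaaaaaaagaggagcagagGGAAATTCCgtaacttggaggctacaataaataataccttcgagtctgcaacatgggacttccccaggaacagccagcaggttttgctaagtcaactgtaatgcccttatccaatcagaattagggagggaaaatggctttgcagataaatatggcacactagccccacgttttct

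GGAATTTCC stood in the 250 bases before the start of 6 of the 7 members whose promoter was in the RefSeq table, the exception being CCL20. Of all 35116 promoters of the same length, 0.413% held it. The motif is the CXCL8 form, so its match in CXCL8 came with that choice. The windows of CXCL1, CXCL2 and CXCL3 are nearly alike, so their matches are not independent. The motif lay at -78 to -70 in CXCL1 and CXCL3, at -77 to -69 in CXCL2, at -91 to -83 in CXCL8, at -75 to -67 in CXCL11 and at -176 to -168 in CXCL10, counted from the start. The interferon-response-like motif was found in 1 of the 7, CXCL10, at -221 to -212, and in 3.02% of all promoters. A looser NF-kB-like form, GGG and CC with any 5 bases between them, which can overlap GGAATTTCC, was in all 7 and in 54.4% of all promoters. The AP-1-like motif TGANTCA was in CXCL8 and CXCL11 and in 6.57% of all promoters. CXCL16, CCL2 and CCL5 were not analysed for motifs here. A match describes the letters of a window and is not a measured binding site.

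**Figure D1:**
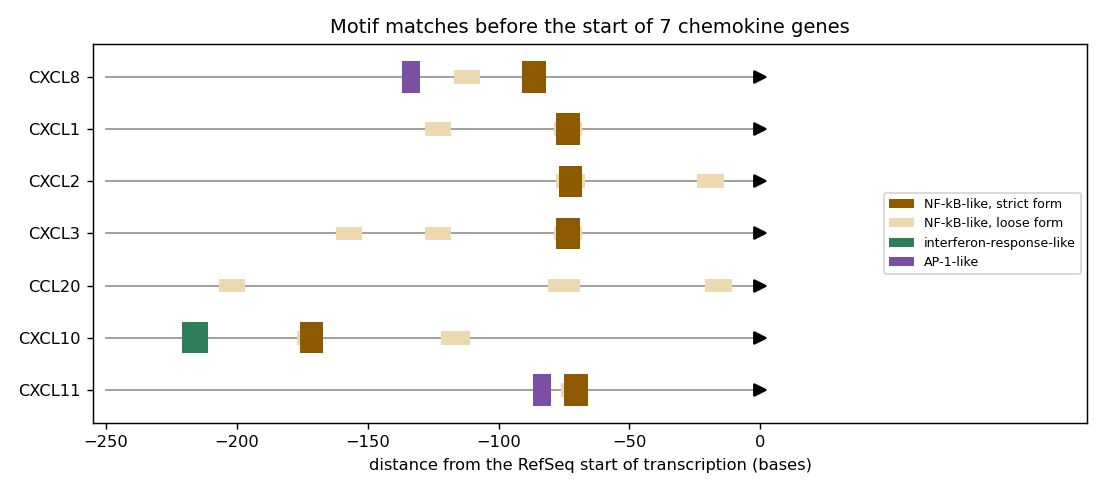
Position of motif matches on either strand in the 250 bases before the RefSeq start (black arrow) of 7 chemokine genes, with distance in bases on the x axis. The strict NF-kB-like motif (GGAATTTCC, dark brown) lies within 91 bases of the start in CXCL8, CXCL1, CXCL2, CXCL3 and CXCL11 and farther away in CXCL10, and the interferon-response-like motif (green) is seen in CXCL10.

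The genes also share position and a feature of their transcripts. In GRCh38, CXCL8 (chr4:73740506-73743716), CXCL1 (chr4:73869393-73871242), CXCL3 (chr4:74036589-74038807) and CXCL2 (chr4:74097035-74099293) lie within 359 kb of chromosome 4. CXCL10 and CXCL11 lie within 20 kb of each other, 1922 kb farther along the same chromosome. CCL20 is on chromosome 2, and CCL2, CCL5 and CXCL16 are on chromosome 17. The pentamer ATTTA, the core of the AU-rich elements that mark short-lived messengers, was counted over the longest coding transcript of each gene. Its density was 8.21 per kb in CXCL2, 6.51 in CXCL3, 5.87 in CXCL8, 4.77 in CCL20 and 4.56 in CXCL1, against a median of 0.937 per kb over 19684 coding genes. Only 1.01% of coding genes reached the density of CXCL1. CCL2 had 1.35 per kb, CXCL10 1.7, CXCL16 0.900 and CXCL11 0.623, and CCL5 had no ATTTA.

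The table gives TPM, a transcript share that takes gene length and the sample's total into account, so levels can be compared between genes, and the number of reads behind a value is unknown. Each log2 fold change is the irradiated mean minus the control mean of log2(TPM + 1), and with this pseudocount low genes show less than their true change. Tests are limma's, fitted over the 14140 genes that averaged 1 TPM or more, with p-values adjusted over all of them. Whether each tumor had its own mouse is not stated in the labels, and the p-values measure only the spread between these samples, which may be technical. Of the 10 chemokines, 8 passed the filter, namely the 6 NF-kB-type genes, CCL5 and CXCL16. CCL5 did so through the irradiated tumors, and CXCL10 and CXCL11 averaged under 1 TPM.

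Before the results, 3 features of the samples bear on them. The cancer line's vimentin (VIM) was at 3148 to 3685 TPM in irradiated and 3797 to 5283 TPM in control tumors, KRT8 and KRT18 were at 328 TPM or more in every tumor, and ESR1 and PGR, absent from this line, did not exceed 0.320 TPM. Summed over 14 skeletal muscle markers, the level was 3.29, 189.7 and 6.28 TPM in irradiated tumors 1, 2 and 3 and 267, 298 and 665 TPM in control tumors 1, 2 and 3. Thus irradiated tumor 2 and control tumor 3 were the tumors with most muscle transcripts in their groups. Ribosomal protein genes took 27.0% of all TPM in control tumor 2, against 19.9% to 22.3% in the other 5 tumors. How mouse reads were treated is not given in the sources used here, so whether a level comes from cancer or host cells cannot be told from the table. Nor can fewer cells of a type be told apart from less RNA per cell.

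No chemokine passed the test for irradiation. The limma fit called 0 of the 8 that passed the filter, where 2.98% of all tested genes were called (1.37% higher and 1.61% lower in irradiated tumors), and 0 of the 8 had an unadjusted p under 0.05, against 20.5% of all tested genes. In 0 of the 8 did the groups fail to overlap, against 26.6% of all tested genes. What stood out was the spread between tumors. NF-kB-type chemokines differed by factors of 8.70 to 69.1 between the lowest and highest tumor, and the extremes lay within the irradiated group or across the groups.

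CXCL8, the most abundant of the 10 and a neutrophil attractant, was at 131.7, 260.3 and 7.57 TPM in irradiated tumors 1, 2 and 3, against 42.6, 109.6 and 219 TPM in control tumors 1, 2 and 3. Irradiated tumor 2 was the highest of the 6 and irradiated tumor 3 the lowest, so the irradiated group enclosed all controls. The means were 133 ± 126 TPM in irradiated and 124 ± 89.1 TPM in control tumors (SD, n = 3 each). The log2 fold change was -0.61 with a standard error of 1.16 (95% interval -3.27 to 2.04, limma adjusted p = 0.802). Its sign is opposite to that of the difference in mean TPM, because the low tumor weighs more on a log scale. Without irradiated tumor 3 the fold change was 0.87 (adjusted p = 0.528), and without irradiated tumor 2 it was -1.60.

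CXCL1, CXCL2 and CXCL3, neighbours of CXCL8 that share its receptor CXCR2, had the same order of extremes with control tumor 3 on top. CXCL1 was at 55.6, 133.7 and 5.07 TPM in the irradiated tumors, against 24.3, 42.1 and 163.7 TPM in the controls. CXCL2 was at 32.5, 40.7 and 2.82 TPM in the irradiated tumors, against 16.1, 10.7 and 110.7 TPM in the controls. CXCL3, the lowest of the 3, was at 14.0, 18.8 and 1.78 TPM in the irradiated tumors, against 5.56, 9.09 and 36.4 TPM in the controls. In each gene control tumor 3 was highest, irradiated tumor 2 came next and irradiated tumor 3 was lowest. The log2 fold changes were -0.65 ± 1.09 for CXCL1, -0.69 ± 1.05 for CXCL2 and -0.53 ± 0.83 for CXCL3 (standard errors), with limma adjusted p of 0.773, 0.748 and 0.756. All 3 turned positive without irradiated tumor 3 (0.63, 0.41 and 0.35) and without control tumor 3 (0.12, 0.31 and 0.21).

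CXCL1, CXCL2 and CXCL3 are close copies, and reads could be assigned to more than 1 of them. Of the 50-base windows of the longest annotated transcript, 5.73% in CXCL1, 9.24% in CXCL2 and 3.02% in CXCL3 also occurred in another of the 3. With their TPM summed, the level was 102, 193 and 9.67 TPM in irradiated tumors and 46.0, 61.9 and 311 TPM in controls. The sum had a log2 fold change of -0.70 (95% interval -3.16 to 1.75, limma adjusted p = 0.748), so the sum did not pass either. The ratio of CXCL1 to CXCL8 stayed between 0.423 and 0.670 in irradiated and between 0.384 and 0.747 in control tumors, while CXCL8 itself varied 34.4-fold.

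CCL2, the monocyte attractant, followed the pattern in part. It was at 30.4, 199 and 22.9 TPM in irradiated tumors 1, 2 and 3, against 25.97, 56.8 and 58.9 TPM in the controls. Irradiated tumor 2 stood alone at the top, 1 of 3 irradiated tumors above every control, and the other 5 tumors ranged from 22.9 to 58.9 TPM. The log2 fold change was 0.23 ± 0.73 (standard error, 95% interval -1.45 to 1.90, limma adjusted p = 0.892), and it was -0.73 without irradiated tumor 2 and -0.15 without control tumor 1. The ratio of CCL2 to CXCL8 was 3.02 in irradiated tumor 3, where CXCL8 was lowest, and 0.231 to 0.765 in the other 5 tumors.

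CCL20, an attractant of cells with CCR6, was low. It was at 4.76, 6.22 and 0.0900 TPM in the irradiated tumors, against 0.910, 0.650 and 3.92 TPM in the controls. Irradiated tumors 1 and 2 lay above every control and irradiated tumor 3 below every control. The 69.1-fold range rests on a value of 0.09 TPM, and on the log2(TPM + 1) scale the within-group SD of CCL20 was the smallest of the 6 NF-kB-type genes. The log2 fold change was 0.52 ± 0.72 (standard error, 95% interval -1.14 to 2.18, limma adjusted p = 0.724). It was 1.37 without irradiated tumor 3 and 0.0070 without irradiated tumor 2.

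**Figure D2:**
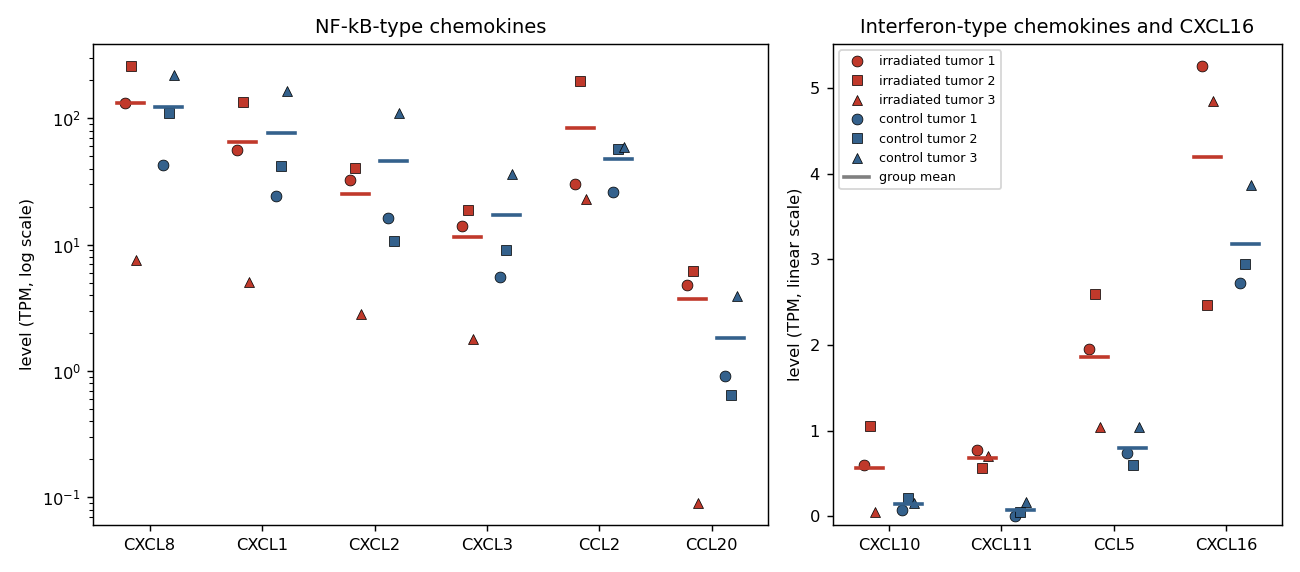
Level of each chemokine in TPM in 3 irradiated (red) and 3 control (blue) tumors, on a log scale for the NF-kB-type genes (left) and a linear scale for the interferon-type genes and CXCL16 (right), with marker shapes for tumor numbers and horizontal bars for group means. Irradiated tumor 3 is the lowest point of every NF-kB-type gene, for example 7.57 TPM in CXCL8, and CXCL11 is the gene whose irradiated tumors all lie above the controls.

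The 6 NF-kB-type genes thus varied far more within groups than most genes. Their within-group SD of log2(TPM + 1) was between 1.21 in CCL20 and 2.02 in CXCL8, and only 0.693% (for CXCL8) to 1.89% (for CCL20) of tested genes had a larger one. For CCL5 and CXCL16 these shares were 34.2% and 26.3%. Those 2 genes averaged 1.3 and 3.7 TPM, where log2(TPM + 1) compresses differences, so their shares cannot be compared with those of the more abundant genes. Irradiated tumor 3 was the lowest tumor in 6 of 6 NF-kB-type genes, and in 16.7% of all tested genes. Control tumor 3 and irradiated tumor 2 were the highest pair and irradiated tumor 3 the lowest in 5 of the 6, all but CCL20, and in 0.983% of tested genes. Both orders were read from the values of these same genes, so the shares beside them describe the genes and do not test them. These genes share libraries, and 4 of them share a locus, so they are not independent observations. The summed TPM of the NF-kB-type genes was 269, 659 and 40.2 in irradiated tumors 1, 2 and 3 and 115, 229 and 593 in the controls. Muscle markers were also highest in control tumor 3 and, among irradiated tumors, in tumor 2. Irradiated tumors 1 and 3 had 3.29 and 6.28 TPM of muscle markers and 269 and 40.2 TPM of NF-kB-type chemokines. The part of host tissue in this spread was not tested.

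**Figure D3:**
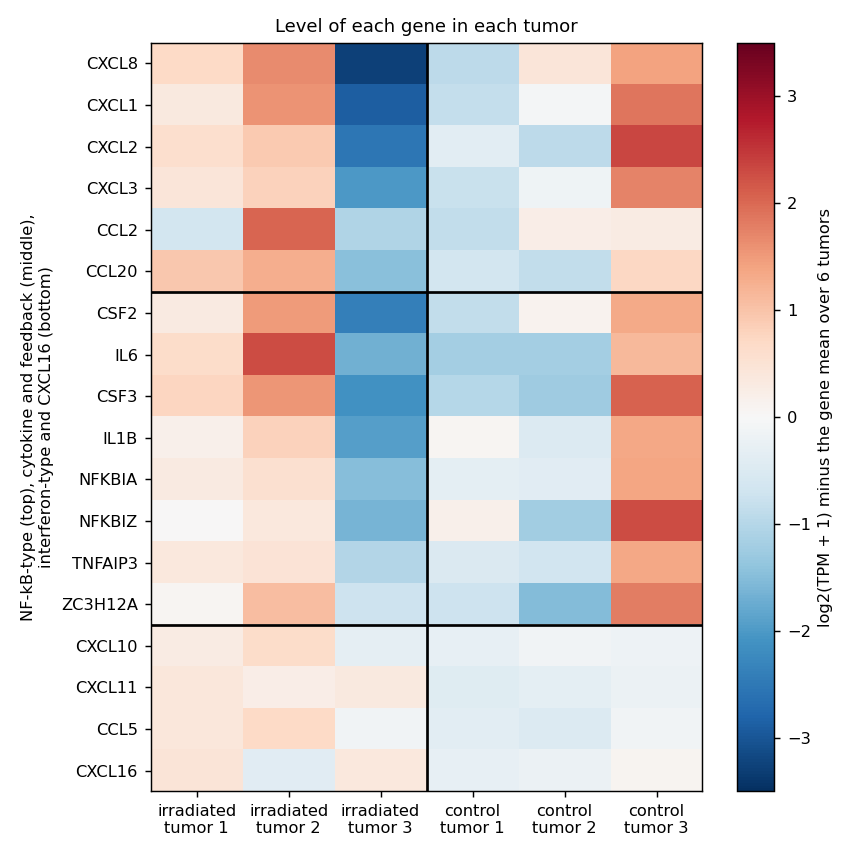
Heat map of log2(TPM + 1) minus the mean of each gene over 6 tumors (color scale), for NF-kB-type chemokines (top), cytokines and NF-kB feedback genes (middle) and interferon-type chemokines with CXCL16 (bottom), with irradiated tumors left of controls. The upper 2 blocks are red in irradiated tumor 2 and control tumor 3 and blue in irradiated tumor 3, except that CCL2 is only slightly above its mean in control tumor 3, while CXCL11 is above its mean in each irradiated tumor and below it in each control. The genes of the middle block were chosen after their values were seen, so its likeness to the upper block came with that choice.

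The genes whose profile over the 6 tumors lay nearest to that of CXCL8, by root mean square distance of centred log2(TPM + 1) among 7629 genes averaging 10 TPM or more, were CXCL1 (0.348), CSF2 (0.410) and CXCL3 (0.685). CSF2, the granulocyte-macrophage colony-stimulating factor, was at 102, 234 and 14.8 TPM in irradiated tumors, against 44.8, 90.8 and 210.5 TPM in controls. Like CXCL8, it was highest in irradiated tumor 2 and lowest in irradiated tumor 3. Other cytokines and feedback inhibitors of NF-kB are named here after their values were seen. IL6, an inflammatory cytokine, was at 23.8, 75.7 and 3.92 TPM in irradiated tumors and 5.87, 5.86 and 33.9 TPM in controls. NFKBIA, the inhibitor IkB-alpha that NF-kB itself induces, was at 201, 236 and 56.1 TPM in irradiated tumors and 125.4, 121.1 and 421 TPM in controls. TNFAIP3, the feedback inhibitor A20, was at 10.2, 11.1 and 3.23 TPM in irradiated tumors and 5.12, 4.4 and 20.9 TPM in controls. The pair of tumors on top was the same in each of these 4, and irradiated tumor 3 was the lowest. CSF2 was chosen by its profile and the other 3 after their values were seen, so the likeness came with the choice. Of all tested genes, 3.48% had this pair on top, and 0.983% also had irradiated tumor 3 lowest.

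Around these chemokines, the NF-kB pathway had no call for irradiation. Of 18 genes for NF-kB subunits and regulators 17 passed the filter, 0 were called by limma and 1 had an unadjusted p under 0.05, with a median log2 fold change of 0.11, beside -0.056 over all tested genes. Without irradiated tumor 2 the list median was -0.084. The smallest p belonged to IKBKG, the regulatory subunit of the IkB kinase, at 28.0, 32.4 and 39.6 TPM in irradiated tumors and 29.2, 15.8 and 23.4 TPM in controls (log2 fold change 0.56, adjusted p = 0.236). NFKBIE, another IkB protein, came next (0.46, adjusted p = 0.274). RELA, the main activating subunit, was at 76.2, 86.3 and 99.2 TPM in irradiated and 67.5, 68.3 and 80.1 TPM in control tumors. It was named after its values were seen. Irradiated tumor 3 had the highest level of RELA and the lowest level of each NF-kB-type chemokine, and a link was not tested. Of 13 cytokines and receptors that act on NF-kB or depend on it, 11 passed the filter, 0 were called and 2 had an unadjusted p under 0.05, with a median of 0.13, which was -0.094 without irradiated tumor 2. The 2 were the receptors TNFRSF1A (log2 fold change 0.53, limma adjusted p = 0.0949) and IL1R1 (0.72, adjusted p = 0.236). Irradiated tumor 3 was lowest in 6 of the 17 and 6 of the 11 genes. Over all tested genes it was lowest in 16.7%, and 20.5% had an unadjusted limma p under 0.05.

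The interferon-type chemokines were low in all tumors and higher on average in irradiated ones. CXCL11 was at 0.770, 0.560 and 0.700 TPM in the irradiated tumors, against 0 (listed at 0), 0.05 and 0.170 TPM in the controls. All 3 irradiated tumors lay above all controls, which made CXCL11 the 1 member of 10 whose groups did not overlap. In an unfiltered fit of 30037 genes, 8.11% had groups that did not overlap with irradiated tumors higher, and 17.1% in either direction. In that fit its log2 fold change was 0.64 ± 0.10 (standard error, 95% interval 0.39 to 0.90), with an unadjusted p of 0.000701 and a limma adjusted p = 0.0776, so it was not called. That fit called 0.443% of its genes. A two-sided exact permutation test of the TPM gave p = 0.1, the smallest that 3 against 3 tumors allow.

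CXCL10 was at 0.600, 1.05 and 0.05 TPM in the irradiated tumors, against 0.0700, 0.210 and 0.150 TPM in the controls. Irradiated tumors 1 and 2 were above every control, and irradiated tumor 3 was the lowest of all. In the unfiltered fit its log2 fold change was 0.40 ± 0.24 (standard error, limma adjusted p = 0.556). CXCL9, the third ligand of CXCR3 and the one most tied to interferon-gamma, was listed at 0 in all 6 tumors.

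CCL5, which attracts T cells and monocytes, was at 1.95, 2.60 and 1.04 TPM in the irradiated tumors, against 0.740, 0.600 and 1.04 TPM in the controls. Irradiated tumors 1 and 2 were above every control, and irradiated tumor 3 equalled control tumor 3. The means were 1.86 ± 0.784 TPM in irradiated and 0.793 ± 0.225 TPM in control tumors (SD, n = 3 each), and the log2 fold change was 0.64 ± 0.30 (standard error, 95% interval -0.04 to 1.32, limma adjusted p = 0.265). It ranged from 0.46 to 0.87 with single tumors left out. Of the 50-base windows of its longest transcript 16.0% also occur in other genes, so its level is less certain. The profiles nearest to that of CCL5 were those of ITGB5 (root mean square distance 0.0750), BTN3A1 (0.0996) and ECE1 (0.122).

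CXCL16 was at 5.25, 2.47 and 4.85 TPM in the irradiated tumors, against 2.72, 2.95 and 3.87 TPM in the controls. Irradiated tumors 1 and 3 were above every control and irradiated tumor 2 below every control, so its order was unlike that of the NF-kB-type genes. The log2 fold change was 0.28 ± 0.28 (standard error, limma adjusted p = 0.611). An exon of it overlaps MED11 on the opposite strand, and the use of strand is not given in the sources used here. Its sheddases ADAM10 and ADAM17 are in a list of 9 genes of chemokine processing and messenger decay, of which 8 passed the filter, 0 were called by limma and 0 had an unadjusted p under 0.05, with a median log2 fold change of -0.08. The smallest p in that list belonged to ZFP36L1 (-0.34, adjusted p = 0.260), which binds AU-rich elements and promotes decay, and ELAVL1 (-0.33, adjusted p = 0.275), which binds and stabilizes such messengers.

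**Figure D4:**
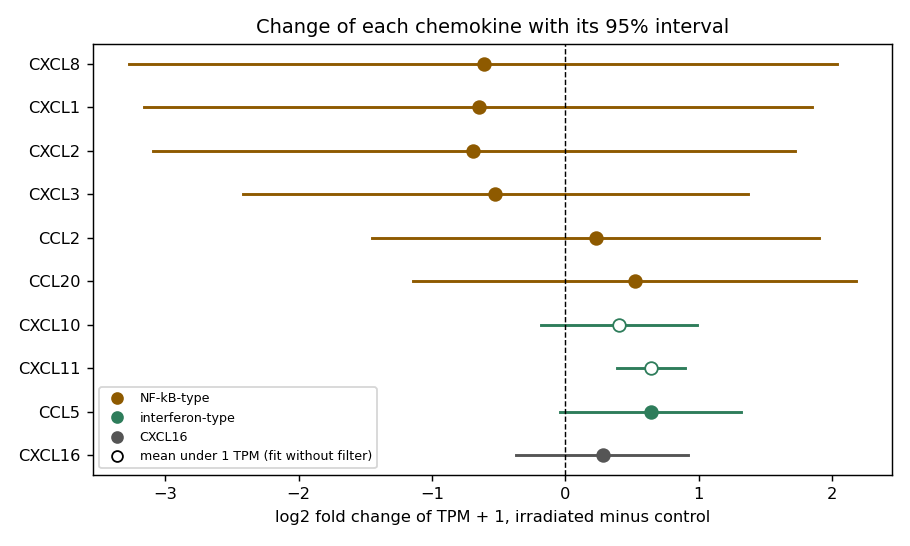
Log2 fold change of TPM + 1, irradiated minus control, of each chemokine (points) with its 95% interval (lines), from limma over 14140 genes, or from the fit without a filter for CXCL10 and CXCL11 (open points). Intervals of the NF-kB-type genes reach from -3.27 to 2.18, and the interval of CXCL11, at 0.39 to 0.90, is the one that does not include 0.

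As mean log2(TPM + 1) of its members, the NF-kB-type level was 4.89, 5.88 and 2.30 in irradiated tumors 1, 2 and 3 and 3.77, 4.28 and 5.90 in the controls. The interferon-type level was 1.02, 1.18 and 0.62 in the irradiated tumors and 0.30, 0.34 and 0.49 in the controls, with every irradiated tumor above every control. Between irradiated tumor 3 and control tumor 3, only CXCL11 was higher in the irradiated one (0.700 and 0.170 TPM). CCL5 was equal at 1.04 TPM, and CXCL10 was lower (0.05 and 0.150 TPM). The difference was -0.29 for NF-kB-type genes, with an SD between tumors of 1.85 in irradiated and 1.11 in control tumors. For interferon-type genes it was 0.56, with an SD of 0.29 in irradiated and 0.10 in control tumors. The SDs cannot be compared between the types, because log2(TPM + 1) compresses differences at low levels. Among irradiated tumors, TPM ranged 21-fold in CXCL10, 2.5-fold in CCL5 and 1.38-fold in CXCL11. These levels are descriptions of chosen genes and were not tested.

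Some interferon-stimulated genes, by contrast, were called in the same fit. The list of 14 such genes had already been shown to be higher by earlier results of these tumors. Of the 14, 5 were called higher and 0 lower, where 1.37% of all tested genes were called higher. All 14 had a fold change above 0, with a median log2 fold change of 1.75. The others were not called, among them ISG15 (limma adjusted p = 0.0817) and MX1 (adjusted p = 0.136). OASL, an antiviral protein, was at 257, 146 and 139 TPM in irradiated tumors and 20.6, 13.5 and 40.2 TPM in controls (2.89, limma adjusted p = 0.00943), and OAS1, IFI44L and IFI27 rose by 2.44, 2.36 and 1.49. GBP1, a guanylate-binding protein, rose by 1.02 (adjusted p = 0.0467). In each of the 5 the groups did not overlap, irradiated tumor 1 was the highest and irradiated tumor 3 the lowest of the irradiated ones. The 5 were picked by their call, so the lack of overlap came largely with that choice. In the whole list, 11 of 14 had all irradiated tumors above all controls. Among all tested genes, 11.6% had groups that did not overlap with irradiated tumors higher. The list was chosen as already higher, so this difference is not a test. OASL lost its call in 2 of 14 alternative settings, OAS1 in 5, IFI44L in 6, IFI27 in 7 and GBP1 in 10 (limma adjusted p up to 0.154).

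Of 21 genes of interferon production and signalling 19 passed the filter and 1 was called (2.98% of all tested genes were called), with a median of 0.30. That gene was DDX58, which encodes the RNA sensor RIG-I, at 69.6, 48.7 and 32.8 TPM in irradiated tumors and 16.7, 10.5 and 22.7 TPM in controls (1.54, limma adjusted p = 0.0485), a call lost in 10 of 14 alternative settings. Its difference from the chemokines was not tested. IFNB1, the interferon-beta gene, was listed at 0 in all tumors. IFNL1, an interferon-lambda gene named after its values were seen, was at 2.55, 1.96 and 0.380 TPM in irradiated tumors and 0.130, 0.120 and 0.390 TPM in controls, and irradiated tumors 1 and 2 stood above the rest. It did not pass the filter, and the unfiltered fit gave 1.01 (limma adjusted p = 0.335).

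**Figure D5:**
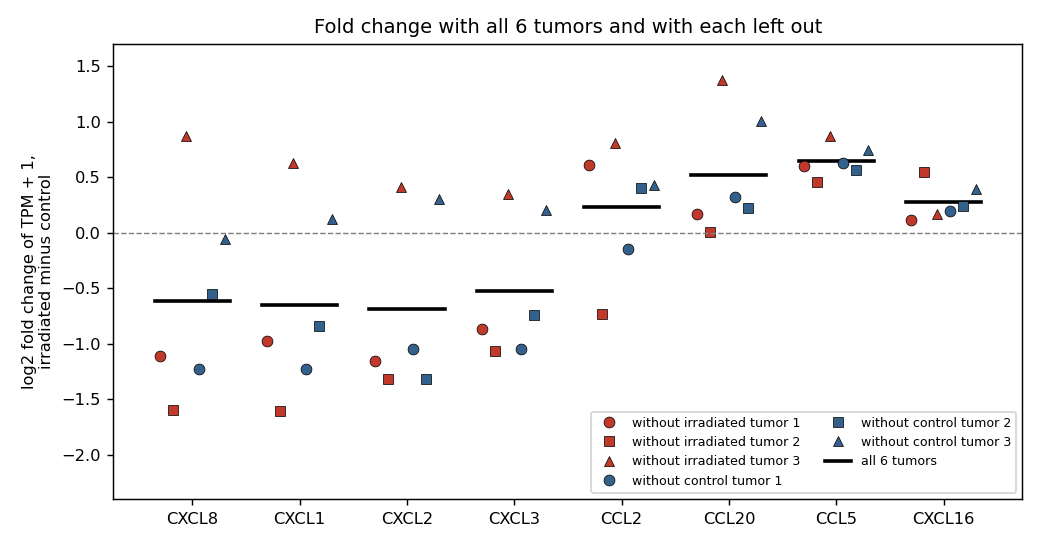
Log2 fold change of TPM + 1, irradiated minus control, of the 8 chemokines that passed the filter, with all 6 tumors (black bars) and with each tumor left out (red for an irradiated tumor left out, blue for a control, marker shapes for tumor numbers). Without irradiated tumor 3 the values of CXCL8, CXCL1, CXCL2 and CXCL3 lie above 0, at 0.35 to 0.87. CCL20, CCL5 and CXCL16 stay above 0 in each case shown, with CCL20 as low as 0.007.

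Few other chemokines were present. Of 34 further ligands 5 passed the filter, 0 were called, 2 had an unadjusted p under 0.05 and 17 were listed at 0 in every tumor, with a median log2 fold change of -0.03 among the 5. An unadjusted limma p under 0.05 was found in 20.5% of all tested genes. CXCL12, a ligand of CXCR4 made mainly by stromal cells, was at 2.06, 4.62 and 0.640 TPM in irradiated tumors and 6.07, 5.03 and 15.0 TPM in controls (-1.53, limma adjusted p = 0.139). CXCL14, a chemokine of epithelia and fibroblasts, was at 4.69, 2.60 and 2.97 TPM in irradiated tumors and 15.3, 5.54 and 6.52 TPM in controls (-1.10, adjusted p = 0.139). In both, all irradiated tumors lay below all controls, as they did in 15% of all tested genes. CXCL5, which lies in the same cluster as CXCL1 and also acts on CXCR2, did not exceed 0.150 TPM in any tumor.

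Receptors for the chemokines were scarce. Of 23 receptors 4 passed the filter, 0 were called and 3 had an unadjusted p under 0.05, with a median of 0.36, which was -0.283 without irradiated tumor 1. Such a p was found in 20.5% of all tested genes. CCR3, among the 3, passed the filter through the irradiated tumors. CXCR1 was listed at 0 in every tumor, and CXCR2, CXCR3, CCR2 and CCR6 did not exceed 0.180 TPM. The smallest p belonged to ACKR3, a decoy receptor of CXCL12 and CXCL11, at 1.43, 1.44 and 0.510 TPM in irradiated tumors and 3.78, 2.83 and 5.31 TPM in controls (-1.23, limma adjusted p = 0.0728). CCRL2, an atypical receptor that binds chemerin, was at 21.7, 15.2 and 10.4 TPM in irradiated tumors and 7.60, 8.07 and 7.99 TPM in controls (0.86, adjusted p = 0.108). Groups did not overlap in either gene, as in 26.6% of all tested genes.

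Markers of other cells were read for these tumors because host cells also make chemokines. Of 16 leukocyte markers 6 passed the filter and 0 were called, with a median of 0.24, and their sum ranged from 115 to 214 TPM in irradiated and 95.2 to 117 TPM in control tumors. S100A8, S100A9 and TYROBP were listed at 0 in every tumor, and PTPRC, the pan-leukocyte marker, did not exceed 0.300 TPM. Most of the sum was CD68, at 91.2 to 187 TPM in irradiated and 74.9 to 94.2 TPM in control tumors (0.61, limma adjusted p = 0.210). ADGRE1, a myeloid marker, had 0.64 (adjusted p = 0.105) and ITGAX 0.61. The markers went both ways, since 3 of the 6 had a fold change above 0. CSF1R had -0.13, AIF1 -0.42 and LYZ -0.99. Of 11 fibroblast markers 8 passed and 4 fell, namely COL1A1 (-1.96), COL1A2 (-2.07), COL3A1 (-2.29) and ACTA2 (-1.88), where 1.61% of all tested genes were called lower. The fibroblast median was -1.44, and sums were 165 to 262 TPM in irradiated and 655 to 1226 TPM in control tumors. Calls were lost in 4 of 14 alternative settings for COL1A1 and ACTA2, 3 for COL3A1 and 2 for COL1A2 (adjusted p up to 0.0925). Of 14 muscle markers 12 passed and 3 fell (1.61% of all tested genes were called lower), namely MYH1, MYH4 and CASQ1, with a median of -3.04. Their calls were lost in 10 of 14 settings for MYH1, 9 of 14 for MYH4 and 8 of 13 for CASQ1 (adjusted p up to 0.159). LYZ, DCN, POSTN, MYH1, MYH2, MYH7 and CASQ1 averaged under 1 TPM in irradiated tumors and passed the filter through the controls. Of 8 endothelial markers 1 passed, CDH5, with 0 calls (0.30, adjusted p = 0.771), and sums were 3.44 to 9.48 TPM in irradiated and 2.75 to 7.77 TPM in control tumors. Of 10 markers of the cancer line 7 passed and 0 were called, with a median of -0.26, and the smallest p belonged to CD44 (-0.44, adjusted p = 0.129) and VIM (-0.46, adjusted p = 0.141). The part of these shifts in the chemokine values was not tested.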

How the data were processed

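The deposited table gave 60606 genes in 6 columns, each named for a tumor in the labels, in TPM computed by the authors with 2 decimals. Per the submitters' processing notes, HISAT2, StringTie, RSEM and hg38 were used, with no order or version. The sources used here give neither annotation release nor strand setting, nor how mouse reads were treated. Per the labels' protocols, libraries came from total RNA with a TruSeq RNA kit. TPM keeps no depth, so no counting interval or count test was possible, and columns summed to 0.143% to 0.774% less than the full total.

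The irradiation effect was fitted with limma 3.58.1 in R 4.3.3 (trend, group as the only term, two-sided, Benjamini-Hochberg at 0.05) on log2(TPM + 1) over 14140 genes that averaged 1 TPM or more. The fit was tested on simulated data. Tumors with the same number were not paired, since the labels do not tie them. The members, the types and the lists of other ligands, receptors, chemokine processing, NF-kB, cytokine, interferon, cancer line, leukocyte, fibroblast, endothelial and muscle genes were chosen with earlier results of these data known. Genes named from a list are the called ones (up to 4, by smallest p) or, with no call, the 2 with the smallest p. The nearest profiles were taken for the most abundant member of each type. Genes named after their values were seen are CSF3, IL6, NFKBIA, TNFAIP3, IL1B, NFKBIZ, ZC3H12A, RELA, GBP1, IFNL1, IFNB1, CXCL5, CXCL9, CCL26, CCR1, CCR3 and the receptors and markers listed at or near 0. RIGI was matched to DDX58. Positions, transcripts and overlaps came from GENCODE release 29 (GRCh38, the same assembly as hg38), and promoters from RefSeq (GRCh38.p14), where 7 of 10 members matched. Alternatives are in the closing section.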

Additional observations from a re-analysis of the deposited data

How the results depend on the processing

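No chemokine was called under those of 14 alternatives in which it was tested (pseudocounts of 0.1 and 5 TPM, no filter or a minimum mean of 5 TPM, median of ratios, rescaling without mitochondrial and ribosomal protein genes, no trend, a replicate block, and each tumor left out). CXCL10 and CXCL11 were tested in the unfiltered fit alone, and at a minimum of 5 TPM the 5 members tested did not include CCL20, CCL5 and CXCL16. With single tumors left out, the members' direction turned in 9 cases. CXCL8 was 0.868, CXCL1 0.631, CXCL2 0.409 and CXCL3 0.351 without irradiated tumor 3. CXCL1 was 0.122, CXCL2 0.305 and CXCL3 0.207 without control tumor 3. CCL2 was -0.729 without irradiated tumor 2 and -0.148 without control tumor 1. The endothelial CDH5 was -0.142 without irradiated tumor 3. With single tumors left out, values spanned -1.605 to 0.631 for CXCL1, -1.323 to 0.409 for CXCL2, -1.065 to 0.351 for CXCL3, -1.597 to 0.868 for CXCL8, -0.729 to 0.804 for CCL2 and -0.142 to 0.782 for CDH5. Each value is a log2 fold change, irradiated minus control, and leaving out a tumor also leaves fewer samples. CCL5, CCL20 and CXCL16 kept a positive sign in every setting that gave a value, and CCL5 ranged from 0.239 to 1.078 over pseudocounts and the other settings with all tumors. The NF-kB-type difference ranged from -1.05 to 0.74 and the interferon-type difference from 0.45 to 0.72 without single tumors. Counting CCL5 as NF-kB-type gave -0.16 and 0.52, and counting CXCL16 as interferon-type gave 0.49.

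Over all genes, 421 were called (194 higher, 227 lower). The count was 133 (69 and 64) without a filter, where more genes are tested, 279 (137 and 142) without trend and 185 (88 and 97) with a replicate block, whose 3 same-number pairs had correlations of -0.0433, -0.0459 and -0.059 between their deviations from group means. Without single tumors it was 127 to 791, with 57 to 229 higher and 67 to 562 lower. The total was lowest without irradiated tumor 1 and highest without control tumor 2, and the higher count was lowest without control tumor 1. List medians near 0 changed sign in some settings, with ranges over single tumors left out of -0.154 to 0.099 for other ligands, -0.283 to 0.546 for receptors, -0.311 to 0.166 for processing, -0.084 to 0.345 for NF-kB genes, -0.094 to 0.301 for cytokines and -0.161 to 0.643 for endothelial markers. The receptor median was 0.019 without a filter and 0.859 at a minimum of 5 TPM, and the leukocyte median was -0.094 without mitochondrial and ribosomal protein genes. Except where other genes or fewer samples were tested, causes of these shifts were not tested. With 3 tumors per group and the spread of the NF-kB-type genes, changes of several-fold in either direction lie inside their intervals.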

Other observations

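The values of 3 further genes of the same families, none called with all 6 tumors, are given here and were chosen after they were seen. CCR3, an eosinophil chemokine receptor, was at 2.66, 2.09 and 1.04 TPM in irradiated tumors 1, 2 and 3, against 0.220, 0.430 and 1.10 TPM in control tumors 1, 2 and 3 (log2 fold change 0.88, limma adjusted p = 0.188). CCR3 averaged 0.583 TPM in controls and passed the filter through the irradiated tumors. Its neighbour CCR1 was at 2.18, 1.48 and 0.310 TPM in irradiated tumors, against 0.140, 0.190 and 0.870 TPM in controls. In both, irradiated tumors 1 and 2 stood above every control and irradiated tumor 3 did not. CCL26, a ligand of CCR3, was at 5.72, 2.51 and 4.38 TPM in irradiated tumors, against 0 (listed at 0), 5.34 and 0.950 TPM in controls (1.12, adjusted p = 0.341), so the groups overlapped through control tumor 2. Without control tumor 2 the log2 fold change of CCL26 was 1.85 (limma adjusted p = 0.0497), and the adjusted p ranged up to 0.651 over 13 alternatives.

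The growth factor CSF3 spanned a 40.8-fold range, at 11.8, 21.0 and 0.750 TPM in irradiated tumors and 2.76, 2.19 and 30.6 TPM in controls. NFKBIZ, a nuclear IkB protein, was at 15.2, 19.8 and 4.18 TPM in irradiated tumors and 17.1, 5.82 and 76.3 TPM in controls. IL1B, which activates NF-kB, was at 7.96, 12.8 and 1.07 TPM in irradiated tumors and 7.17, 4.61 and 18.9 TPM in controls. Each was highest in control tumor 3 and lowest in irradiated tumor 3, as CXCL1, CXCL2 and CXCL3 were. CSF3, NFKBIZ and IL1B were chosen after their values were seen. ZC3H12A, the ribonuclease Regnase-1 that degrades cytokine messengers, was also highest in control tumor 3, with 53.7 TPM, and lowest in control tumor 2, with 4.48 TPM.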
